A study of Mus musculus with 4 samples.

Results

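Neutrophils store antimicrobial proteins and proteases in granules that are laid down in waves as the cell matures. Primary (azurophil) granules form in promyelocytes, secondary (specific) granules in myelocytes and metamyelocytes, and tertiary (gelatinase) granules later still. Transcription of the secondary granule genes is known to depend on the factor C/EBP epsilon, and leukemic blasts that are arrested before the myelocyte stage express little of it. The 10 genes described here encode proteins of the secondary and tertiary granules or of the neutrophils that carry them, and were chosen by symbol, each matching 1 of the 24589 entries of the expression table. They are Ngp, Camp, Ltf, Lcn2, Mmp8, Mmp9, Wfdc21, Pglyrp1, Ceacam10 and Itgb2l. All 10 passed the filter on low values, which left 11837 mouse genes.

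Transcript levels were measured by RNA-seq in 4 libraries of a mouse acute myeloid leukemia model, in 2 groups of 2. The KO-labelled group has the genotype label Tet2 KO and came from hematopoietic stem cells of Tet2-/- marrow lacking exons 8 to 10 of Tet2, a dioxygenase that oxidises 5-methylcytosine in DNA. The WT group was made in the same way from wild-type marrow. Both groups carried NRAS and AE9a, a truncated AML1-ETO fusion, and both were grown in RPMI medium with 3 murine cytokines and 2 selection drugs. The cytokines were SCF (50 ng/ml), IL-3 (10 ng/ml) and IL-6 (10 ng/ml), and the drugs were puromycin (2 µg/ml) and G418 (1 mg/ml). No treatment, age or sorting was labelled. The labels do not say whether the 2 libraries of a group came from separate cultures, mice or clones, so each p-value reflects variation among these libraries only, which may be technical. The Tet2 label and the origin of each cell line cannot be told apart.

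Values are TPM (transcript abundance scaled to a fixed library total), which are corrected for transcript length, so levels of different genes can be set side by side. Read depth is unknown, because TPM does not keep it. Tet2 itself had 53.53 and 52.79 TPM in the KO-labelled libraries, against 35.05 and 39.95 TPM in the WT libraries (log2 change 0.50, SE 0.067, adjusted p = 0.0054 by limma). Because a value for the whole gene does not resolve the deleted exons, it cannot check the label. Pearson's r across all kept genes, which are not independent replicates, was 0.992 for 2 libraries of the same group and between 0.979 and 0.982 for libraries of different groups.

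The sequences just upstream of 4 of the genes are shown as a description, and whether a C/EBP site has a part in the changes was not tested. Ngp, Ltf and Mmp8 are shown with a match to TTNNGCAA, a relaxed C/EBP motif, and Ceacam10 without one. The sequences are RefSeq windows on GRCm38.p6, ending before the first annotated exon base, with matches to TTNNGCAA on either strand in capitals. Ngp is shown from chr9:110419558-110419746, Ltf from chr9:111019042-111019270, Mmp8 from chr9:7558179-7558428 and Ceacam10 from chr7:24776954-24777203, all on the plus strand.
Ngp: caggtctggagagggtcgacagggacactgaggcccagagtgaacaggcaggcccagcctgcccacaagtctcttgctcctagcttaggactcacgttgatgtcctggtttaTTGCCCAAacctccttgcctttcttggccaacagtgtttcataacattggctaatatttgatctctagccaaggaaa
Ltf: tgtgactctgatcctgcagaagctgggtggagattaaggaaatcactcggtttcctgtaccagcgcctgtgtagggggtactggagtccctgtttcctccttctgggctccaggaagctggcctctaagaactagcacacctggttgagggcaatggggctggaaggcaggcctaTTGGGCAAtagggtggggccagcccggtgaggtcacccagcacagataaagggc
Mmp8: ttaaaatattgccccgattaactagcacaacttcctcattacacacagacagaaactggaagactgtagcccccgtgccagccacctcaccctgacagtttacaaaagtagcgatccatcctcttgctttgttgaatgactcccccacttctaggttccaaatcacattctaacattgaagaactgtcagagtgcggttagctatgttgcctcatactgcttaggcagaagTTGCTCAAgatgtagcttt
Ceacam10: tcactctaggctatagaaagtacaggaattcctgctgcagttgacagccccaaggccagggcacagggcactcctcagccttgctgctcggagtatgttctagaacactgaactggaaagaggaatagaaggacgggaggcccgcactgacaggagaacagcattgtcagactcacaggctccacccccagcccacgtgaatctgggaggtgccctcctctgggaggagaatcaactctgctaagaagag

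Counted with the base before the RefSeq start as position -1, the capitals begin at position -138 in Ngp, -75 in Ltf and -19 in Mmp8. Another match in Ngp began at position -11 and a match in Lcn2 at position -216, both inside annotated exons, and neither is shown. In the 250 bases before the start, 4 of the 8 members with a window (Ngp, Ltf, Lcn2 and Mmp8) held TTNNGCAA, against 10.8% of 27025 genes. The members without it were Camp, Pglyrp1, Ceacam10 and Itgb2l, and Ceacam10 and Camp had the largest falls of the 10 genes. Annotated exons cover 161 of the 250 window bases of Camp and 197 of those of Lcn2. For Camp only 89 bases lie before the first annotated exon base, so its lack of a match covers little upstream sequence. Whether a match goes with the size of a fall was not tested. The palindrome TTGCGCAA, which is among the sequences that TTNNGCAA matches, was in none of the 8 and in 0.185% of genes. The PU.1 box GAGGAA was in 6 of the 8 members, against 25.85% of genes, and CCAAT was in 2, against 37.5%. The CCAAT match of Ltf overlapped its C/EBP match. AGATAA, the GATA motif, was in 2 members against 11.4% of genes, and CACGTG in 1 against 6.86%. TGTGGT for RUNX (15.9% of genes) and TATAAA (14.3%) were in none of the 8. These matches describe letters in a window and do not show that a factor was bound there. Windows for Mmp9 and Wfdc21 were not used here.

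All 10 granule genes were lower in the KO-labelled libraries than in the WT libraries, by between 0.43 and 2.65 on the log2(TPM + 1) scale. Each was called lower by limma at an adjusted p under 0.05 over all kept genes, and 0 were called higher, whereas 11.6% of all kept genes were called lower and 18.9% higher. In each of the 10 genes both KO-labelled values lay below both WT values, which held for 26.5% of all kept genes. The median log2 change of the 10 genes was -1.26, beside 0.04 for all kept genes. Since the genes were chosen with earlier results of these data known, their count describes them and is not a test of the group. In bulk RNA, fewer maturing neutrophils and less granule transcript per cell cannot be told apart. With groups of 2, the smallest two-sided p of an exact permutation test is 0.333, and the calls therefore depend on limma sharing variance information among genes.

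**Figure D1:**
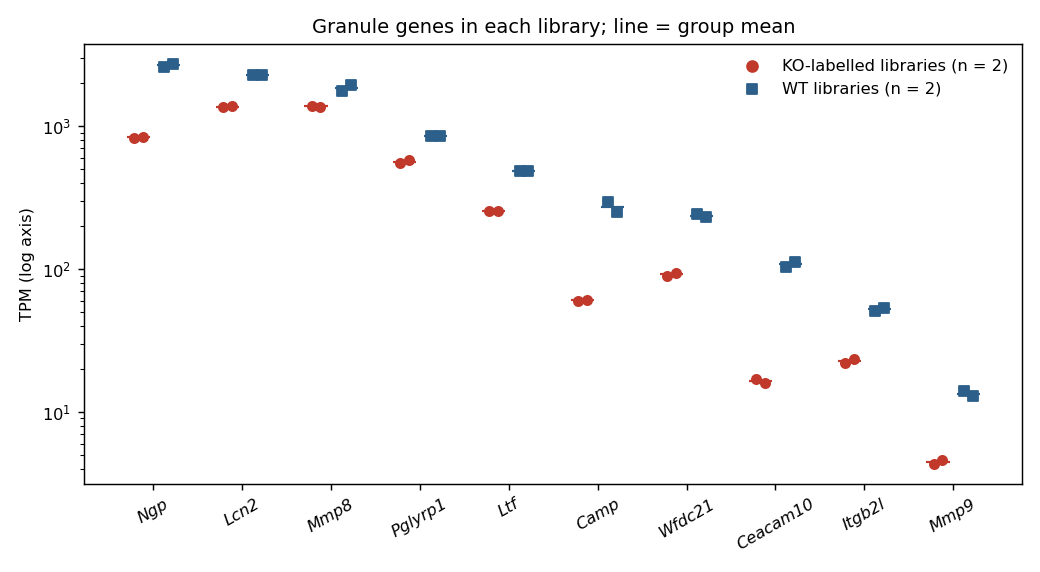
TPM of each granule gene on a log axis in the 2 KO-labelled libraries (circles) and the 2 WT libraries (squares), with a line at each group mean. Genes run from the highest to the lowest WT mean, and in each gene both circles lie below both squares.

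Ngp and Camp encode cationic proteins of secondary granules. Camp is the precursor of the antimicrobial cathelicidin peptide, and Ngp is a granule protein of mouse marrow neutrophils with sequence similarity to cathelicidins. Ngp had 829.59 and 837.95 TPM in the KO-labelled libraries, against 2607.08 and 2727.09 TPM in the WT libraries. The KO-labelled mean was 0.313 of the WT mean (log2 change -1.68, SE 0.036, adjusted p = 2.6e-05). Camp had 60.20 and 61.03 TPM in the KO-labelled libraries, against 293.70 and 251.42 TPM in the WT libraries. Its mean was 0.222 of the WT mean (log2 change -2.15, SE 0.074, adjusted p = 1.2e-04). The WT libraries differed from each other by 0.22 in log2 Camp level, the widest replicate gap among the 10 genes and small beside its change of -2.15.

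Ltf and Lcn2 act on iron. Lactoferrin (Ltf) binds the metal directly, and lipocalin-2 (Lcn2) captures the siderophores with which bacteria collect it. Ltf had 254.79 and 256.88 TPM in the KO-labelled libraries, against 484.87 and 484.05 TPM in the WT libraries (log2 change -0.92, SE 0.029, adjusted p = 9.3e-05). Lcn2 had 1367.13 and 1375.62 TPM in the KO-labelled libraries, against 2277.53 and 2279.29 TPM in the WT libraries (log2 change -0.73, SE 0.030, adjusted p = 1.6e-04). For both genes the libraries of a group were nearly equal and the groups were far apart, with KO-labelled means of 0.528 and 0.602 of the WT means.

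Mmp8 and Mmp9 are the neutrophil collagenase of secondary granules and the gelatinase that gives tertiary granules their name. Mmp8 changed least of the 10 genes, with 1386.25 and 1362.79 TPM in the KO-labelled libraries, against 1755.21 and 1958.36 TPM in the WT libraries. Its log2 change was -0.43 (SE 0.057, adjusted p = 0.0049), and without KO-labelled replicate 2 the call was lost (-0.42, adjusted p = 0.053). Mmp9 was the least abundant, with 4.33 and 4.61 TPM in the KO-labelled libraries, against 13.91 and 12.88 TPM in the WT libraries. The KO-labelled mean of Mmp9 was 0.334 of the WT mean (log2 change -1.40, SE 0.074, adjusted p = 3.5e-04). At this level the pseudocount matters, and the log2 change of Mmp9 was -1.56 with a pseudocount of 0.1 and -0.96 with a pseudocount of 5. Transcripts of Mmp8 exceeded those of Mmp9 by 320 and 296 times in the KO-labelled libraries, and by 126 and 152 times in the WT libraries. Whether the change of this ratio exceeds the spread between libraries was not tested.

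The remaining members are a protein of the whey acidic protein family (Wfdc21), a receptor for bacterial peptidoglycan (Pglyrp1), a secreted member of the carcinoembryonic antigen family in mice (Ceacam10), and pactolus, an integrin beta 2-like protein of mouse neutrophils (Itgb2l). Ceacam10 fell most of the 10, with 16.91 and 15.93 TPM in the KO-labelled libraries, against 103.85 and 112.54 TPM in the WT libraries (log2 change -2.65, SE 0.057, adjusted p = 2.6e-05). Only 11 of the 11837 kept genes had a more negative change. Wfdc21 had 89.69 and 93.74 TPM in the KO-labelled libraries, against 241.32 and 232.28 TPM in the WT libraries (log2 change -1.36, SE 0.040, adjusted p = 7.5e-05). In Wfdc21 the KO-labelled mean was 0.387 of the WT mean.

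Itgb2l had 21.98 and 23.51 TPM in the KO-labelled libraries, against 51.13 and 53.35 TPM in the WT libraries (log2 change -1.17, SE 0.052, adjusted p = 2.1e-04). It lies within Igsf5 on the opposite strand, which had at most 0.19 TPM in any library. Pglyrp1 had 550.79 and 575.61 TPM in the KO-labelled libraries, against 859.55 and 852.61 TPM in the WT libraries (log2 change -0.60, SE 0.035, adjusted p = 4.4e-04). Reads shared between gene copies could affect Ceacam10, of whose 1532 distinct transcript 50-mers 46 (3.003%) also occur in Ceacam1 or Ceacam2. Ceacam1 had 55.37 and 54.57 TPM in the KO-labelled libraries, against 94.66 and 105.89 TPM in the WT libraries. In Pglyrp1 2.67% of 50-mers occur in other genes, and in the other 8 members none do.

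**Figure D2:**
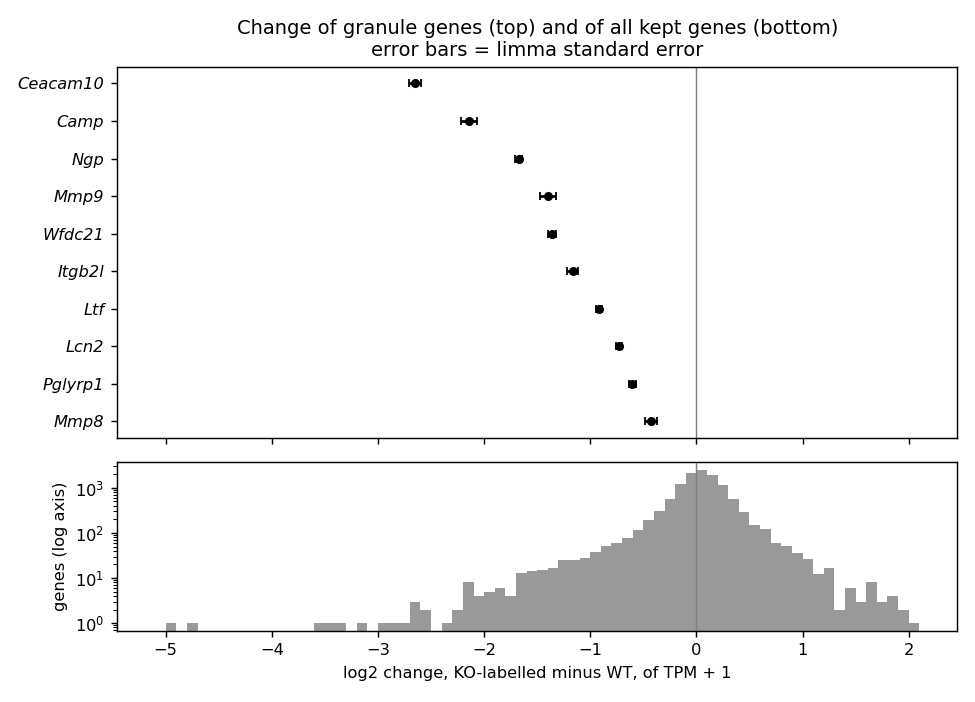
Upper panel, log2 change (KO-labelled minus WT, of TPM + 1) of each granule gene with its limma standard error. Lower panel, the same change for all 11837 kept genes on a log count axis, centred near 0, with the granule genes lying between -2.65 and -0.43.

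The order of abundance among the granule genes differed between the groups. In the KO-labelled libraries Mmp8 and Lcn2 came first and their values overlapped, followed by Ngp, Pglyrp1, Ltf, Wfdc21, Camp, Itgb2l, Ceacam10 and Mmp9. The WT libraries had Ngp first, then Lcn2, Mmp8, Pglyrp1, Ltf, Camp, Wfdc21, Ceacam10, Itgb2l and Mmp9, and Camp and Wfdc21 differed there by little more than the spread of Camp (272.6 ± 29.9 and 236.8 ± 6.39 TPM, SD, n = 2). Apart from Mmp8 and Lcn2 in the KO-labelled libraries, no neighbours in either order had overlapping values.

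Together the 10 genes made up 0.474% and 0.477% of mouse TPM in the KO-labelled libraries, against 0.895% and 0.927% in the WT libraries. The exact two-sided permutation p for this sum was 0.333, the smallest that 2 against 2 allows. Within the sum, Ngp held 18.1% and 18.2% in the KO-labelled libraries, against 30.01% and 30.4% in the WT libraries. Mmp8 held 30.3% and 29.6% in the KO-labelled libraries, against 20.2% and 21.8% in the WT libraries. The share of Ltf was nearly the same in both groups, at 5.57% on average in the KO-labelled and 5.49% in the WT libraries. Ratios within a library do not depend on how libraries are scaled. The ratio of Ngp to Lcn2 was 0.607 and 0.609 in the KO-labelled libraries, against 1.145 and 1.196 in the WT libraries. Differences in change among the members were not tested.

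**Figure D3:**
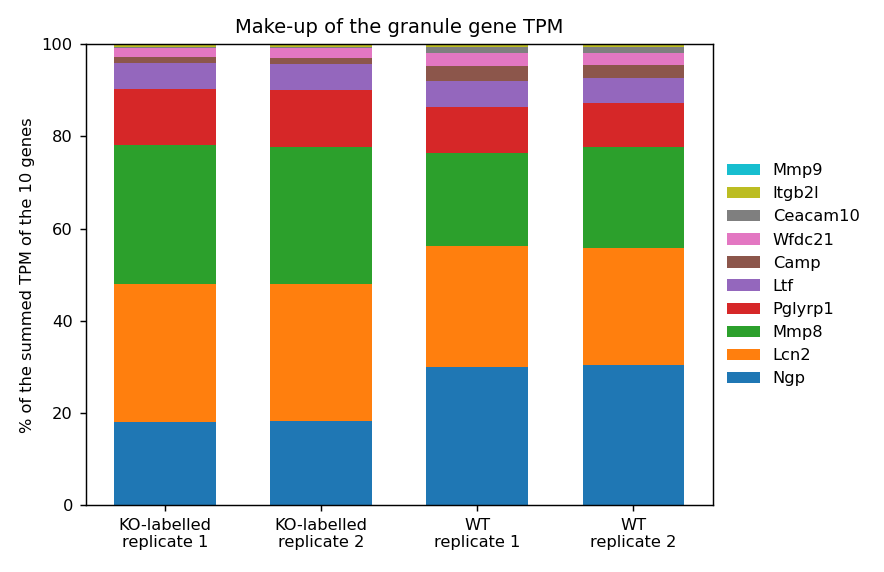
Percentage of the summed TPM of the 10 genes held by each gene, in the 2 KO-labelled libraries on the left and the 2 WT libraries on the right. The Ngp share is 18.1% and 18.2% in the KO-labelled libraries and 30.01% and 30.4% in the WT libraries, and the Mmp8 share differs the other way.

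The 10 genes lie on 5 chromosomes, and all are protein coding in GENCODE M21 (GRCm38). Camp (109847379 to 109849617, minus strand), Ngp (110419747 to 110423012, plus strand) and Ltf (111019271 to 111042767, plus strand) share a stretch of 1195 kb on chromosome 9. Mmp8 lies far from them on the same chromosome (7558456 to 7568485). Of 16 other kept genes inside the stretch from Camp to Ltf, 1 was called lower, 3 were called higher and 12 did not pass, with a median log2 change of 0.03. The gene called lower was Als2cl, 119 kb from Ltf (6.72 and 6.63 TPM in the KO-labelled and 12.00 and 11.59 TPM in the WT libraries, log2 change -0.74, adjusted p = 0.0014). The 3 called higher were Smarcc1 (log2 change 0.20), Nbeal2 (0.19) and Mir6236 (0.84), a small RNA locus whose values from an mRNA kit are uncertain. The nearest kept neighbours of Ngp, Ptpn23 and Klhl18, had log2 changes of 0.02 and 0.05 (adjusted p = 0.85 and 0.46).

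**Figure D4:**
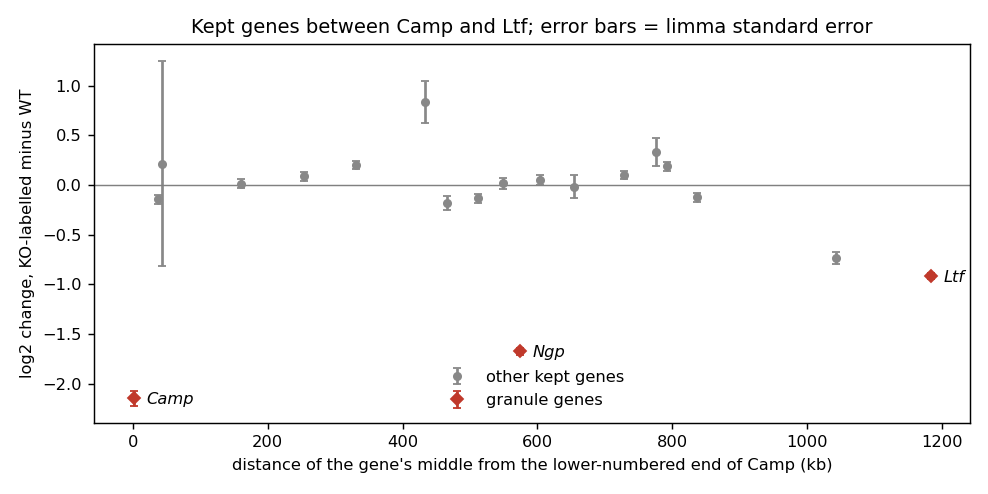
Log2 change (KO-labelled minus WT, with limma standard error) of the 19 kept genes from Camp to Ltf, by distance in kb of the gene's middle from the lower-numbered end of Camp. Camp, Ngp and Ltf lie between -2.15 and -0.92, while the other 16 range from -0.74 to 0.84 around a median of 0.03.

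On other chromosomes, Ceacam10 (chromosome 7, 24777206 to 24784657) has Cd177 as its nearest kept neighbour, 16.9 kb away. Cd177, a GPI-anchored surface and secondary granule protein of neutrophils, had 42.26 and 42.56 TPM in the KO-labelled libraries, against 215.40 and 213.72 TPM in the WT libraries (log2 change -2.31, SE 0.033, adjusted p = 6.8e-06). The nearest kept neighbour of Mmp8 was Mmp27, 2.91 kb away, which was not called (log2 change -0.32, adjusted p = 0.14). On the other side the nearest kept gene was Mmp12, the macrophage metalloelastase, 189 kb away. Mmp12 had 201.58 and 201.83 TPM in the KO-labelled and 461.38 and 489.43 TPM in the WT libraries (log2 change -1.23, adjusted p = 9.2e-05). Pglyrp1 is also on chromosome 7 (18871331 to 18890459), Lcn2 (32384633 to 32388252) and Mmp9 (164940780 to 164955850) on chromosome 2, Wfdc21 on chromosome 11 (83746940 to 83752642) and Itgb2l on chromosome 16 (96422288 to 96443619). Over the 20 nearest kept neighbours of the 10 genes, 6 were called lower and 1 higher, with a median log2 change of -0.09. Of all kept genes, 11.6% were called lower and 18.9% higher. The 6 include Cd177, itself on the list of other secondary and tertiary granule genes. Neighbours lay up to 1809 kb away (Hif3a, beside Pglyrp1), so the count is not a local measure.

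Other secondary and tertiary granule genes mostly fell as well. Of 17 kept among 20 listed, 15 were called lower, 1 higher and 1 did not pass, with a median log2 change of -0.62. Mmp25, among those called lower, passed the filter only through the WT group. Chil3, a chitinase-like protein of mouse myeloid cells, had 68.01 and 62.00 TPM in the KO-labelled libraries, against 587.47 and 593.26 TPM in the WT libraries (log2 change -3.16, adjusted p = 8.2e-06). Mcemp1, a myeloid membrane protein, fell by 1.90 and Lrg1, a secreted leucine-rich glycoprotein, by 1.19 on the log2 scale (adjusted p = 5.5e-05 and 2.2e-04). The single gene called higher was Cybb, the catalytic subunit of the phagocyte NADPH oxidase, named after its value was seen (54.63 and 51.73 TPM in the KO-labelled and 38.49 and 43.58 TPM in the WT libraries, log2 change 0.37, adjusted p = 0.014). Without KO-labelled replicate 1 or 2, 11 of these genes were called lower each time and Cybb was not called.

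Primary granule genes did not move in a single direction. Of 12 kept among 13 listed, 5 were called lower, 2 higher and 5 did not pass (median log2 change -0.15), and without KO-labelled replicate 1 or 2 only 3 were called lower. Elane, neutrophil elastase, had 108.58 and 117.32 TPM in the KO-labelled libraries, against 273.44 and 276.05 TPM in the WT libraries (log2 change -1.28, adjusted p = 1.2e-04). Srgn, the proteoglycan serglycin that packs granule proteases, fell by 0.55 (adjusted p = 0.0016). Mpo, myeloperoxidase, rose by 0.44 and Nkg7, a granule membrane protein, by 0.63 (adjusted p = 0.0015 and 9.3e-04). Elane was also among the 5 genes closest in pattern to the mean of the 10 members. The measure was the root mean square difference of centred log2 values over the 4 libraries, which was 0.035 for Elane. Bmp2 (0.028), Qsox1 (0.029), Fcgr4 (0.034) and App (0.038) were the others, out of 9464 candidates.

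Among regulators of granule genes and of granulocyte fate, 6 of 20 kept genes (of 22 listed) were called lower, 8 higher and 6 did not pass. The 8 higher calls fell to 1 with spike-in scaling, and to 2 without KO-labelled replicate 1 or 2. Cebpe, which encodes C/EBP epsilon, had 92.69 and 94.12 TPM in the KO-labelled libraries, against 144.33 and 137.42 TPM in the WT libraries (log2 change -0.59, SE 0.039, adjusted p = 5.9e-04). Its KO-labelled values lay below both WT values, and its fall was smaller than the median fall of the granule genes. Cebpd, a related factor, fell by 0.46 (adjusted p = 0.0034), and Gfi1, a repressor required for neutrophil development, fell by 0.44 (adjusted p = 0.0031). Spi1, which encodes PU.1, fell by 0.26 (adjusted p = 0.0041), a call lost without KO-labelled replicate 2 (adjusted p = 0.055). Cebpa, which acts earlier in granulocyte commitment, had 88.58 and 92.36 TPM in the KO-labelled libraries, against 81.05 and 81.61 TPM in the WT libraries (log2 change 0.15, adjusted p = 0.033), but was not called with spike-in scaling (0.04, adjusted p = 0.78), with trimmed-mean scaling (adjusted p = 0.075), without a variance trend (adjusted p = 0.082) or without any 1 library (adjusted p from 0.058 to 0.20). Id1, an inhibitor of basic helix-loop-helix factors, rose by 0.36 (adjusted p = 0.0024).

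Surface and cytosolic genes of mature neutrophils went mainly the same way as the granule genes. All 22 listed were kept, of which 15 were called lower, 3 higher (1 with spike-in scaling, 0 without KO-labelled replicate 1) and 4 did not pass, with a median log2 change of -0.40. Cxcr1, among those called lower, passed the filter only through the WT group. Retnlg, a resistin-like secreted protein of mouse neutrophils, had 263.33 and 273.93 TPM in the KO-labelled libraries, against 1349.86 and 1275.28 TPM in the WT libraries (log2 change -2.28, adjusted p = 1.6e-05). S100a8 and S100a9, the subunits of calprotectin, fell by 0.97 and 0.92 on the log2 scale (adjusted p = 1.9e-04 and 1.6e-04), and S100a9 was the gene whose pattern came closest to that of Ltf (root mean square difference 0.0088). Fpr1, a receptor for bacterial formyl peptides, fell by 1.04 (adjusted p = 3.8e-04). Without KO-labelled replicate 1, 10 of the 22 genes were called lower.

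Genes that sort or release granules were divided. All 15 listed were kept, with 5 called lower, 6 higher and 4 not passing. The 6 higher calls became 0 with spike-in scaling and 2 without WT replicate 1. Without KO-labelled replicate 1 there were 2 lower and 1 higher, and without KO-labelled replicate 2 there were 3 and 2. Snap23, a membrane fusion protein, rose by 0.32 (adjusted p = 0.0041), whereas Stx11, a syntaxin, fell by 0.34 (adjusted p = 0.0045), Lyst, the gene of Chediak-Higashi syndrome, fell by 0.38 (adjusted p = 0.0047) and Rab27a, a small GTPase of granule docking, fell by 0.25 (adjusted p = 0.0057).

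Of 11 listed inhibitors, partners and receptors of the granule proteins, 7 were kept, with 5 called lower, 1 higher and 1 not passing. Without KO-labelled replicate 1 the counts were 2 lower and 0 higher, and without KO-labelled replicate 2 they were 3 and 0. Without either WT library 3 genes were called lower. Timp1, an inhibitor that binds Mmp9, had 0.11 and 0.59 TPM in the KO-labelled libraries, against 3.48 and 3.74 TPM in the WT libraries (log2 change -1.79, adjusted p = 0.0029). Timp2 had 24.41 and 24.33 TPM in the KO-labelled libraries, against 43.05 and 42.95 TPM in the WT libraries (log2 change -0.79, adjusted p = 3.0e-04). Timp3 was the gene called higher, at 2.07 and 1.80 TPM in the KO-labelled libraries, against 0.53 and 0.55 TPM in the WT libraries (log2 change 0.93, adjusted p = 0.0065). Timp1 reached 1 TPM only in the WT libraries and Timp3 only in the KO-labelled libraries. Each therefore passed the filter only through the group where it was high, and both are near the floor. Fpr2, a formyl peptide receptor family member that also binds cathelicidin peptide, fell by 0.47 (adjusted p = 0.014).

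**Figure D5:**
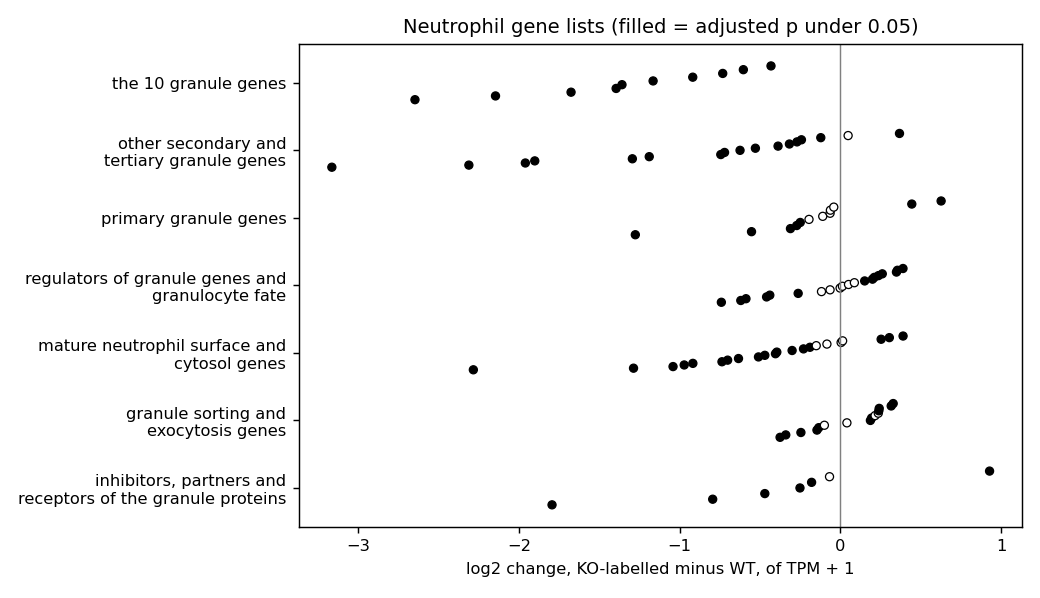
Log2 change (KO-labelled minus WT, of TPM + 1) of each kept gene in the 10 granule genes and in 6 related lists. Each point is a gene and filled points have an adjusted p under 0.05. The granule genes and most other secondary and tertiary granule genes lie below 0, while regulators and sorting genes lie on both sides.

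The label of myeloid leukemia cells was set against lineage markers. Of 9 progenitor and myeloid markers 8 were kept, with 2 called lower, 5 higher and 1 not passing. The summed level of this list was 2321 and 2382 TPM in the KO-labelled libraries, against 2090 and 2160 TPM in the WT libraries. Its largest term was Mpo, also a primary granule gene, with 989.75 and 1037.06 TPM in the KO-labelled and 730.73 and 757.54 TPM in the WT libraries. Csf2rb, the next largest, was called lower (log2 change -0.31), so the higher sum does not describe all of the list. Neutrophil markers, 4 of which are members, were all kept and summed to 22466 and 22791 TPM in the KO-labelled libraries, against 45429 and 44604 TPM in the WT libraries. S100a8 and S100a9 held most of that sum. Of the 10 neutrophil markers 9 were called lower and 1, Csf3r, did not pass (log2 change -0.08, adjusted p = 0.27). Monocyte and macrophage markers (11 of 12 kept, 3 called lower and 3 higher) summed to 2644.5 and 2621 TPM in the KO-labelled libraries, against 3124 and 3250 TPM in the WT libraries, with Marco at 0 in all libraries. Ly6c2, also on the mature neutrophil list, held most of that sum. It had 1582.61 and 1571.58 TPM in the KO-labelled libraries, against 2028.22 and 2121.73 TPM in the WT libraries. The largest changes in this list went both ways, with Mrc1 at -2.08 and Ccr2 at 0.94 on the log2 scale. The mast cell and basophil sum was 2146 and 2079 TPM in the KO-labelled libraries, against 1964 and 2041 TPM in the WT libraries, where 4 of 7 kept genes were called lower and 1 higher, Cpa3, which held most of the level. Eosinophil markers (3 of 8 kept) summed to 49.0 and 47.9 TPM in the KO-labelled and 47.7 and 53.1 TPM in the WT libraries, with 2 called lower and 1 higher. Prg2, the eosinophil granule major basic protein, had 0.93 and 1.46 TPM in the KO-labelled libraries, against 13.67 and 14.67 TPM in the WT libraries (log2 change -2.80, adjusted p = 2.5e-04). Ear2, an eosinophil ribonuclease, was listed at 0 in both KO-labelled libraries, against 1.28 and 1.30 TPM in the WT libraries. It was the other marker called lower, but it is near the floor and passed the filter only through the WT group. Siglecf, a surface lectin that held most of the eosinophil sum, was called higher (log2 change 0.45, adjusted p = 0.0070).

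The megakaryocyte sum was 157 and 147 TPM in the KO-labelled and 162 and 161 TPM in the WT libraries, with 2 of 4 kept markers called lower and 1 higher. Itga2b, the platelet integrin alpha chain, had 41.15 and 40.41 TPM in the KO-labelled libraries, against 20.01 and 20.56 TPM in the WT libraries (log2 change 0.97, adjusted p = 2.1e-04). The platelet chemokine Ppbp had 32.74 and 34.53 TPM in the KO-labelled libraries, against 64.07 and 70.50 TPM in the WT libraries (log2 change -0.98, adjusted p = 4.8e-04), and Vwf fell by 0.66 (adjusted p = 0.0035). Lymphocyte markers summed to 4.85 and 4.92 TPM in the KO-labelled libraries, against 2.81 and 2.97 TPM in the WT libraries. Their single kept marker, Cd79b, was called higher (log2 change 0.63, adjusted p = 0.0064), while Ms4a1, Cd3e and Cd8b1 were at 0 throughout. Stromal and endothelial markers summed to 9.54 and 9.16 TPM in the KO-labelled libraries, against 6.47 and 6.89 TPM in the WT libraries, and their single kept marker, Pdgfrb, was called higher (log2 change 0.48, adjusted p = 0.0054). Erythroid markers (3 of 9 kept, 1 called higher) summed to 276 and 299 TPM in the KO-labelled libraries, against 209.9 and 208 TPM in the WT libraries, with Hbb-bs at 0 in all 4. Hbb-bt held most of that sum, with 201.76 and 215.53 TPM in the KO-labelled libraries, against 136.29 and 129.13 TPM in the WT libraries (log2 change 0.65, adjusted p = 8.7e-04). The beta globin genes are near-identical copies, so how reads were divided between them is uncertain. The part of any other lineage in the lower granule transcripts was not tested.

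The direction of the granule genes did not depend on how libraries were scaled. The spike-ins held 3.41% and 3.39% of TPM in the KO-labelled libraries, against 2.98% and 3.30% in the WT libraries. Scaling to the spike-ins moved the median change of all kept genes by -0.11 on the log2 scale. The spike-in share of WT replicate 2 lay closer to the KO-labelled libraries than to WT replicate 1. The shift therefore rests largely on WT replicate 1, a limit shared by the higher calls lost with spike-in scaling. Under that scaling all 10 granule genes were still called lower, with a median of -1.38. Relative to the median of all genes, the granule median was -1.30 as deposited and -1.31 with spike-in scaling. Of all calls 62.0% were higher as deposited, 54.2% with quantile normalization, 48.6% with trimmed-mean scaling and 29.9% with spike-in scaling.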

How the data were processed

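The authors deposited 1 table of 4 columns, used here as TPM because each column sums to 1000000 and because RSEM was named. STAR, RSEM and mm10 are named per the submitters' processing notes, and the RNA came from QIAzol lysis and a KAPA stranded mRNA kit per the labels' protocols. Versions, annotation and strand setting are not given in the sources used here. TPM keep no read depth, so no counting interval was computed.

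The 92 ERCC spike-in entries share the total but were not tested. A gene was kept where 2 or more libraries reached 1 TPM (11837 genes), so a gene could pass through 1 group alone. Among listed genes, Timp1, Mmp25, Cxcr1 and Ear2 passed only through the WT group, and Timp3 only through the KO-labelled group. The calls of these genes are included in the counts of their lists. Values were analysed as log2(TPM + 1), a scale that understates changes of genes at low TPM, with limma 3.58.1 (variance trend, two-sided, Benjamini-Hochberg over all kept genes) in R 4.3.3. Changes are KO-labelled minus WT, the standard error (SE) is the moderated one, and a call is an adjusted p under 0.05. Every adjusted p comes from this limma fit or its alternatives. Groups and replicate numbers came from the sample titles. Alternatives covered scaling, filter, pseudocount, variance model, threshold, replicate block and leaving out each library.

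The members, the 6 related lists, the marker lists and the naming rule were chosen with earlier results of these data known. The rule named all members, up to 4 genes of each list by smallest p, Cebpe, Cebpa, Gfi1, Spi1, Tet2 and the genes with the closest pattern. The genes between Camp and Ltf and the nearest neighbours were looked at after values were seen. Positions came from GENCODE M21, which held 97.4% of kept symbols, and promoter windows from RefSeq (GRCm38.p6). Protein sequences were not used here, and 1 marker gene is not reported here.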

Additional observations from a re-analysis of the deposited data

How the results depend on the processing

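The 10 granule genes were called lower under every setting tried except 2. Without KO-labelled replicate 2 the count was 9, with Mmp8 lost. With a minimum log2 change of 1 it was 6, with Ltf, Lcn2, Mmp8 and Pglyrp1 below the minimum, and 231 genes were called in all (66 higher, 165 lower). None was called higher under any of the 18 settings. Over leaving out each library the member count ran from 9 to 10, the median log2 change of the granule genes from -1.30 to -1.22 and their share of mouse TPM, KO-labelled minus WT, from -0.451 to -0.420 percentage points around -0.436. Spike-in scaling gave a median of -1.38, and a pseudocount of 5 gave a median of -1.001. The share of mouse TPM itself does not depend on how libraries are scaled. A different measure, the summed level of the 10 genes after spike-in scaling, was taken as a percentage of a fixed total. This level was 0.438 and 0.444 in the KO-labelled libraries, against 0.953 and 0.886 in the WT libraries (difference of means -0.478). It is not comparable with the share difference of -0.436. Over all kept genes 3606 were called, and 2108 (631 higher) with spike-in scaling. At an adjusted p under 0.01 there were 1505 (839 higher, 666 lower). Leaving out each library gave between 1239 and 3255 calls, 602 to 1065 lower and 628 to 2190 higher, lowest without KO-labelled replicate 1 (1239) or 2 (1288). The causes were not tested, beyond there being fewer samples.

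With the replicate block 3071 genes and all 10 granule genes were called. The deviations of same-numbered libraries from their group means had r = -0.11 over 11837 genes, which are not independent. With 2 pairs this value cannot decide whether the libraries were paired. The main fit did not take the numbers as pairs. The crossed pairing, chosen after seeing the data, gave 3463 and 10. The replicate block ended the Cebpa call (adjusted p = 0.053).

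Groups of 2 limit each gene's own spread estimate to 2 residual degrees of freedom, with a limma prior of 3.51. Read depth is unknown.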

Other observations

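The pattern measure described above also gave the gene closest to each single member. Tpsb2, a mast cell tryptase, was closest to Ngp (root mean square log2 difference 0.032), with 25.72 and 25.33 TPM in the KO-labelled libraries, against 77.86 and 84.92 TPM in the WT libraries. H2-Eb1, an MHC class II chain, was closest to Camp (0.080), with 11.77 and 13.21 TPM in the KO-labelled libraries, against 61.23 and 59.18 TPM in the WT libraries. Mgl2, a galactose-type lectin of macrophages and dendritic cells, was closest to Ceacam10 (0.049), with 64.22 and 62.95 TPM in the KO-labelled libraries, against 416.90 and 419.76 TPM in the WT libraries. Ccl7, a monocyte chemoattractant, was closest to Itgb2l (0.011), with 9.22 and 10.06 TPM in the KO-labelled libraries, against 22.67 and 23.45 TPM in the WT libraries. Rab3il1 was closest to both Wfdc21 (0.0094) and Mmp9 (0.016), with 3.37 and 3.57 TPM in the KO-labelled libraries, against 10.87 and 10.30 TPM in the WT libraries. Slc6a8 was closest to Pglyrp1 (0.012), Plk3 to Mmp8 (0.016) and Als2cl to Lcn2 (0.019), beside S100a9 for Ltf. With 4 libraries in 2 groups, this measure ranks genes mainly by the size of their fall.

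The nearest kept gene on one side of Wfdc21, Wfdc17 of the same family, was not called, with 68.34 and 65.49 TPM in the KO-labelled libraries, against 65.67 and 72.10 TPM in the WT libraries (log2 change -0.04, adjusted p = 0.62). On the far side of Itgb2l, the interferon-induced Mx1 had 7.22 and 6.72 TPM in the KO-labelled libraries, against 2.89 and 3.11 TPM in the WT libraries (log2 change 0.99, adjusted p = 0.0015), at a distance of 1003 kb.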
